A study of Mus musculus with 18 samples.

Results

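Klf2, S1pr1, Ccr7 and Il7r are 4 genes through which naive T cells circulate and survive, and they were taken by name from the 15698 named genes of the deposited table. The 18 libraries, 3 in each of 6 groups, were sequenced from the 3′ ends of transcripts. CD4+ T cells bearing the transgenic 5CC7 receptor, labelled Spleen/Lymph node, spent 4 days with P13.9 fibroblasts that presented 0.01, 0.1, 1.0 or 10 µM of the peptide antigen pPCC, and they were set against naive CD4+ T cells and against P13.9 alone. P13.9 is a single fibroblast line, and the activated samples were taken after culture with it. The question of the design is what varying signal strength through the receptor does to the fate of the cells. No label gives the animal or culture behind a library, so p-values measure the spread between these libraries, which may be technical.

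KLF2 is a zinc finger transcription factor of the Krüppel-like family that holds T cells in a quiescent, recirculating state. It switches on S1pr1, whose product is the receptor for sphingosine 1-phosphate, the lipid that draws T cells out of lymph nodes into lymph and blood. CCR7 is the chemokine receptor that brings T cells from the blood into lymph nodes along CCL19 and CCL21. IL7R is the alpha chain of the interleukin-7 receptor, which pairs with the common gamma chain, encoded by Il2rg, and keeps resting T cells alive. T cell receptor signalling is known to lower all of these, and the transcription factor FOXO1 is known to maintain them in resting cells.

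All 4 members matched RefSeq genes of GRCm38, the assembly also called mm10. Klf2 lies on chromosome 8 at 72319062 to 72321654, S1pr1 on chromosome 3 at 115710433 to 115715055, Ccr7 on chromosome 11 at 99144199 to 99155077 and Il7r on chromosome 15 at 9506159 to 9529941. The RefSeq promoters of Klf2 and Il7r are shown, the 2 members with an entry in the RefSeq promoter table used here. Each runs from 250 bases before the start used there to 50 after it. For Klf2 that is the gene start above. For Il7r, on the minus strand, it lies inside the gene and not at its end, 9529941. Capitals mark matches to short motifs.

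Klf2 chr8:72318812-72319111, plus strand: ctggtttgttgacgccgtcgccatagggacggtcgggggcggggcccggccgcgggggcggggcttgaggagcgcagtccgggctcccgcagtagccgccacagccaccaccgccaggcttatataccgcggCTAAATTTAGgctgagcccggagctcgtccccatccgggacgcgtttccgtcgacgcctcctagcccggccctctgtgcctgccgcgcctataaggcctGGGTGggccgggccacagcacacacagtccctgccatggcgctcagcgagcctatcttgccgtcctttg

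Il7r chr15:9529827-9530126, minus strand: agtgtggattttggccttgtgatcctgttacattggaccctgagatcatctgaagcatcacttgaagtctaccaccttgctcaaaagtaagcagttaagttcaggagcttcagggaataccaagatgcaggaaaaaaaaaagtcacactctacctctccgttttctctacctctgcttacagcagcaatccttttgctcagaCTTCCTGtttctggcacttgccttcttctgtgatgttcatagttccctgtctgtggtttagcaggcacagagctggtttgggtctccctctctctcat

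Motifs were searched on both strands. The Klf2 window holds 1 match to the MEF2 core, which occurs in 3.69% of 32851 promoters of this length, and 1 match to the KLF core CACCC, read as GGGTG, which occurs in 57.5%. The Il7r window holds 1 match to the ETS core CAGGAAG, read on the other strand, which occurs in 13.3%. The FOXO core GTAAACA, found in 3.65% of promoters, is in neither window. The Klf2 window is 69.3% G and C with 32 CpG dinucleotides, and the Il7r window 45.7% with 1, beside medians of 52.7% and 7 over all promoters.

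The labels state a depth of 4000000 reads per library. Recovered reads in named genes were far fewer, 27789 to 97757 in the naive libraries, 156941 to 733009 in the activated ones and 201627 to 352001 in P13.9. A single naive read corresponded to 2.17 to 6.55 normalized units, so the naive levels of the 4 members rest on 26 to 134 reads each. The 8 T cell markers, among them Cd3e, Cd4, Cd28 and Lck, had reads in every T cell group. Their summed level ran from 159 to 183 at 0.01 µM and from 255 to 302 at the other doses, against 265 to 355 in naive cells, and Cd3e was at 0 in P13.9. In bulk libraries, fewer cells of a type and less RNA per cell cannot be told apart.

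Klf2, the transcription factor, stood at 78.6, 164 and 173 in the naive libraries. It stood at 2.34, 2.78 and 6.07 with 0.01 µM, 15.5, 8.72 and 12 with 0.1 µM, 9.45, 22.7 and 16.9 with 1.0 µM, and 11.6, 10.3 and 8.81 with 10 µM. Every activated library lay below every naive one, and the 3 libraries at 0.01 µM lay below the 9 libraries at the other doses. The share of all genes with this order of doses was not counted, and the T cell marker sum above had the same order. P13.9 cells held 1.53, 0.669 and 1.77, from 7 reads in all, and were the lowest of the 6 groups.

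S1pr1, the egress receptor, stood at 125, 125 and 134 in the naive libraries. Its values were 6.36, 3.94 and 6.07 with 0.01 µM, 14.6, 8.72 and 12 with 0.1 µM, 8.92, 15.7 and 16.9 with 1.0 µM, and 11.9, 13 and 12.6 with 10 µM. The order of the groups was that of Klf2 at its ends, with naive cells highest, 0.01 µM lowest of the T cell groups, and overlapping libraries at the 3 higher doses. P13.9 cells held no S1pr1 read.

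Ccr7, the lymph node entry receptor, stood at 65.5, 58.6 and 102 in the naive libraries. With peptide it stood at 9.38, 8.35 and 9.78 (0.01 µM), 17.4, 16.6 and 17.4 (0.1 µM), 11.0, 21.4 and 13.2 (1.0 µM), and 28.2, 20.6 and 27.0 (10 µM). The 3 libraries at 0.01 µM lay below the 9 libraries at the other doses, as for Klf2 and again without a count over all genes. Libraries at 10 µM were above those at 0.1 µM and, apart from 1 library at 1.0 µM, above the rest of the activated libraries. No Ccr7 read was found in P13.9.

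Il7r, the survival receptor, had the lowest naive read number of the 4, 26 over the naive libraries. Its values were 19.7, 31.2 and 32.5 in naive cells, 8.54, 6.49 and 6.07 with 0.01 µM, 7.01, 7.84 and 13.7 with 0.1 µM, 7.35, 13 and 5.84 with 1.0 µM, and 5.93, 4.80 and 7.47 with 10 µM. Naive libraries again lay above all activated ones, but the 4 doses overlapped each other throughout. P13.9 held no Il7r read either.

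**Figure D1:**
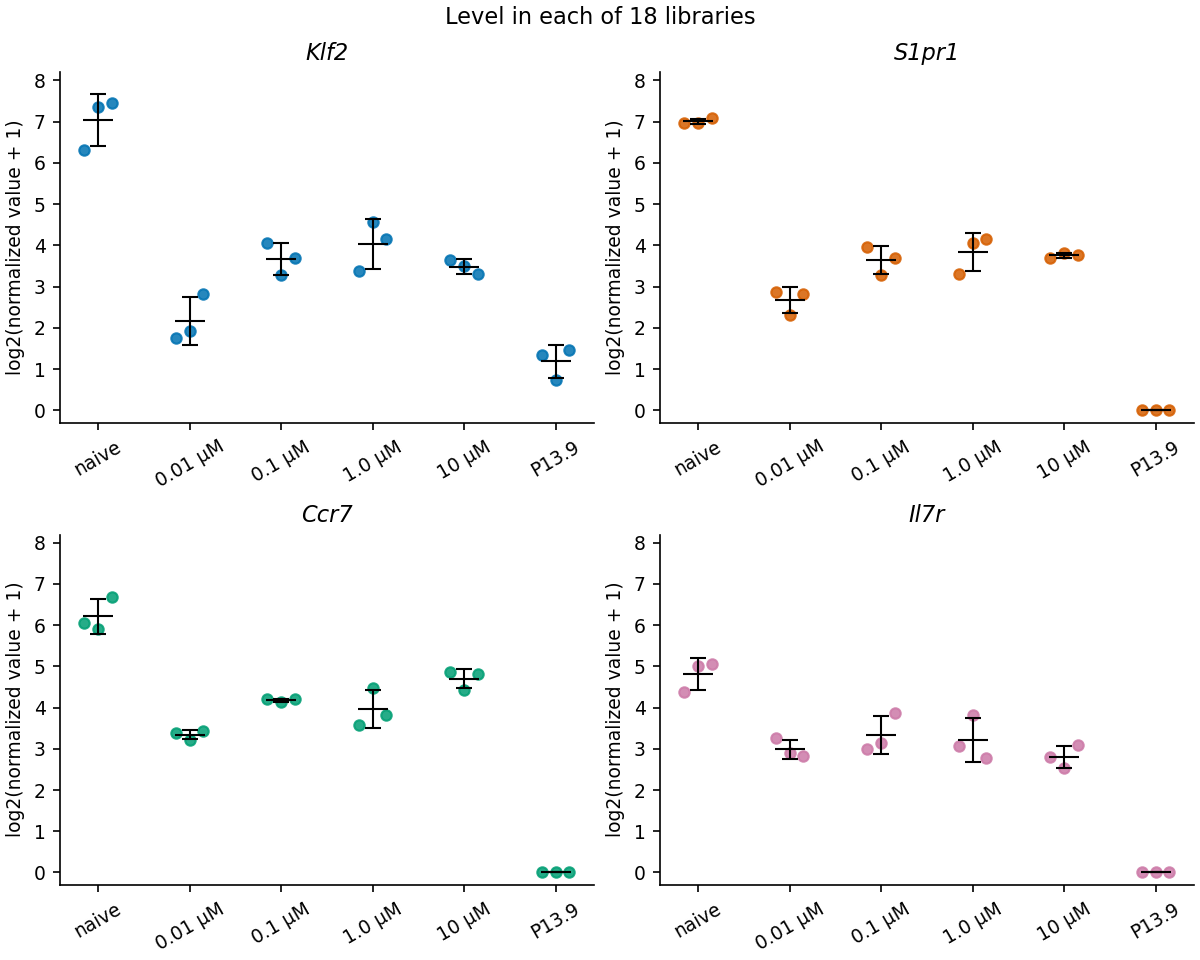
Level of each member, as log2 of the normalized value plus 1, in each of 18 libraries. Points are libraries, and bars are the mean ± SD of 3. Naive cells are on the left, then the doses of pPCC from low to high, then P13.9. Every activated library is below every naive one for all 4 genes, and Klf2, S1pr1 and Ccr7 are lower in every library at 0.01 µM than in any at the 3 higher doses. The share of all genes with this order of doses was not counted.

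The first comparison asks how far each member fell in activated cells. Klf2 kept 2.69% of its naive mean with 0.01 µM, 8.72% with 0.1 µM, 11.8% with 1.0 µM and 7.37% with 10 µM. In the same order of doses S1pr1 kept 4.27%, 9.22%, 10.8% and 9.78%, Ccr7 12.2%, 22.7%, 20.2% and 33.6%, and Il7r 25.3%, 34.2%, 31.5% and 21.8%. At 10 µM the mean level of Klf2 was 10.2 ± 1.39, against 138.6 ± 52.1 in naive cells, and that of S1pr1 was 12.5 ± 0.589, against 128 ± 5.51 (SD, n = 3 each). Ccr7 averaged 25.3 ± 4.13 at 10 µM and 75.3 ± 23.2 in naive cells, and Il7r 6.07 ± 1.34 and 27.8 ± 7.07 (SD, n = 3 each).

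All 4 members passed the test as lower at each of the 4 doses, with limma on log2(value + 1) and Benjamini-Hochberg adjustment over 7264 genes at a threshold of 0.05. The share of all genes called lower was 27.7% with 0.01 µM, 31.5% with 0.1 µM, 31.4% with 1.0 µM and 32.8% with 10 µM, so being called lower was common. These shares depend on scaling: scaling to total reads moved the median log2 change of all genes to 0.60 at 0.01 µM and 0.46 at 10 µM, and 18.2% and 24.6% of genes were then called lower. In the same way, 25.0% of all genes had their 12 activated libraries below the 3 naive ones without overlap. The median log2 change over all genes was 0.03 at 0.01 µM and -0.07 at 10 µM. How the members' changes rank among the genes called lower was not tested.

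On the log2 scale Klf2 fell by 4.88 ± 0.39 with 0.01 µM (SE, limma adjusted p = 6.96e-08), 3.37 with 0.1 µM (3.52e-06), 3.0 with 1.0 µM (1.16e-05) and 3.56 with 10 µM (adjusted p = 1.81e-06). S1pr1 fell by 4.34 ± 0.27, 3.36, 3.16 and 3.25 in the same order, with adjusted p-values from 5.02e-09 to 1.52e-07. Ccr7 fell by 2.87 ± 0.26, 2.03, 2.24 and 1.51 at the same doses, with adjusted p-values from 3.69e-07 to 0.000185. Il7r fell by 1.82 ± 0.35, 1.47, 1.60 and 2.01, with adjusted p-values from 0.000185 to 0.00234. Naive, 0.01 µM and 1.0 µM samples share a run of sample numbers in the labels, while 0.1 and 10 µM lie in another, and the calls were made both within that run and across the runs.

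**Figure D2:**
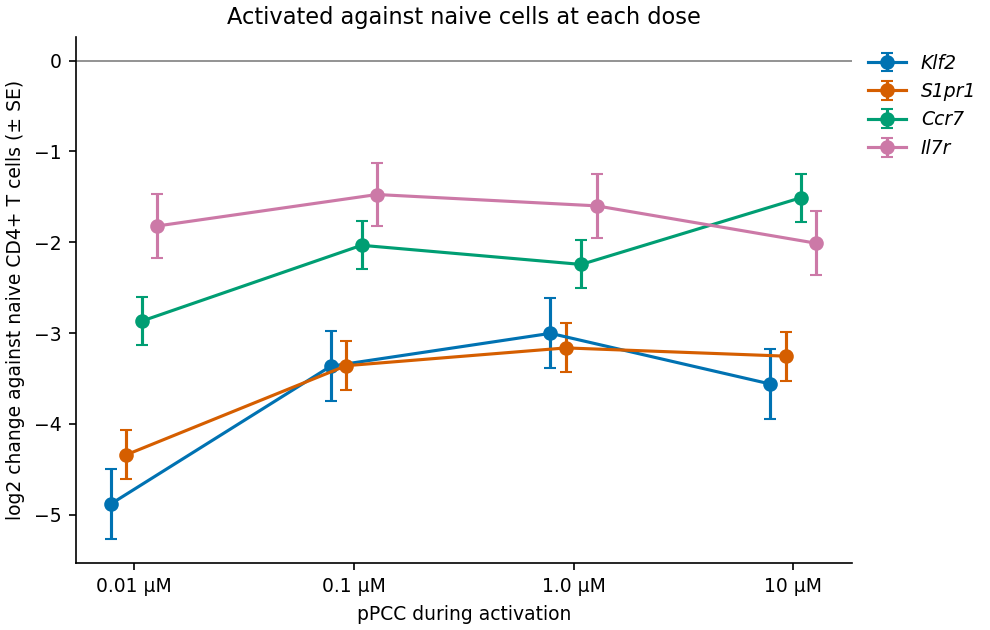
Log2 change of each member at each dose of pPCC against naive CD4+ T cells, on the log2(value + 1) scale. Points are limma estimates from groups of 3 libraries and bars the standard error. Klf2 and S1pr1 lie between -4.88 and -3.0 and Ccr7 and Il7r between -2.87 and -1.47, and the Ccr7 and Il7r lines cross between 1.0 and 10 µM.

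Transcripts of other cells moved with this comparison, and their part in the result was not tested. Of 8 myeloid and dendritic markers, 7 had reads in naive cells, and the summed level of the 8 was 24.7 to 39.4 in the activated libraries, against 125 to 160 in the naive ones. That sum was also 95.9 to 123 in P13.9 fibroblasts, where 4 of the markers had reads, so it does not measure myeloid cells alone. Klrk1, the 1 natural killer cell marker of 3 with a row here, was 0 to 0.337 in activated libraries, against 13.1 to 23.8 in naive ones. The endothelial markers Pecam1 and Emcn, 2 of 5 listed, summed to 1.24 to 10.0 in activated libraries and 13 to 32.8 in naive ones. The 2 markers differed. Emcn, with 10 naive reads, was 7.81 to 26.2 in naive libraries, 0 to 0.167 at 0.01 µM and 0 at the higher doses. Pecam1 was 4.33 to 7.81 in naive libraries and 7.87 to 10.0 at 1.0 µM. It was 2.36 to 2.85 at 0.01 µM, 1.24 to 6.10 at 0.1 µM and 2.11 to 4.52 at 10 µM. S1pr1 and Klf2 are also known as endothelial genes. The CD8 T cell markers Cd8a and Cd8b1 were both at 0 in naive cells. Their sum was 0.685 to 1.69 at 10 µM and 0.525 to 2.15 at 1.0 µM. A single naive read is worth 2.17 to 6.55 units, so the naive 0 could not show such a level. The 6 B cell markers were not analysed here. Set against the T cell marker sum, which includes Cd28, itself 20.4 ± 2.80 at 10 µM and 80.7 ± 16.4 in naive cells (SD, n = 3 each), Klf2 was 3.54 ± 0.471% at 10 µM and 46.2 ± 17.1% in naive cells. For Il7r these shares were 2.10 ± 0.486% and 9.30 ± 2.40% (SD, n = 3 each).

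The comparison of 10 with 0.01 µM sets the strongest against the weakest signal. Klf2, S1pr1 and Ccr7 were each higher at 10 µM than at 0.01 µM, while Il7r was 6.07 ± 1.34 at 10 µM and 7.04 ± 1.32 at 0.01 µM (SD, n = 3 each). The log2 change was 1.32 ± 0.39 for Klf2 (limma adjusted p = 0.0480), 1.09 ± 0.27 for S1pr1 (adjusted p = 0.0219), 1.36 ± 0.26 for Ccr7 (adjusted p = 0.00516) and -0.19 ± 0.35 for Il7r (adjusted p = 0.831). Thus 3 of 4 members rose, where 1.9% of 7264 genes were called higher. That share was 17.2% with DESeq2, 15.5% with edgeR and 19.6% with limma and array weights, so it depends on the method. The libraries of these 3 genes did not overlap between the 2 doses, which held for 21.8% of all genes in that direction.

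The steps up from 0.01 µM were tested singly. At 0.1 against 0.01 µM, Klf2 was higher by 1.52 ± 0.39 on the log2 scale (limma adjusted p = 0.0354) and S1pr1 by 0.98 ± 0.27 (adjusted p = 0.0470), and the other members had 0.83 for Ccr7 (adjusted p = 0.0810) and 0.35 for Il7r (adjusted p = 0.668). These were 2 of 4 members, beside 2.18% of all genes called higher. At 1.0 against 0.01 µM, a pair within 1 run of sample numbers, Klf2 rose by 1.88 ± 0.39 (adjusted p = 0.0124) and S1pr1 by 1.18 ± 0.27 (adjusted p = 0.0229), beside 1.64% of all genes. Ccr7 had 0.62 (adjusted p = 0.234) and Il7r 0.22 (adjusted p = 0.840) there. These calls were often lost under other processing. At 0.1 µM, 10 of 19 alternative fits lost that of Klf2 and 13 of 19 that of S1pr1, and at 1.0 µM 4 and 10 of 19 did. With the fibroblast-list share of P13.9 RNA subtracted, the adjusted p was 0.0724 for Klf2 and 0.215 for S1pr1 at 0.1 µM, and 0.0340 and 0.148 at 1.0 µM. Ccr7 gained a call at 0.1 µM in 6 of 19 fits, and no test compared the members with each other.

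Among the 3 higher doses no member was called. For 10 against 0.1 µM, the other pair within a run, the log2 changes were -0.20 for Klf2, 0.11 for S1pr1, 0.52 for Ccr7 and -0.54 for Il7r, with standard errors of 0.26 to 0.39. In that comparison 0.0964% of all genes were called in either direction. Ccr7 had 0.74 ± 0.26 for 10 against 1.0 µM (adjusted p = 0.717), where 0.0826% of genes were called. DESeq2 called it there (adjusted p = 0.0491), as did limma with array weights (adjusted p = 0.0107), while edgeR did not (adjusted p = 0.0948). For 1.0 against 0.1 µM, 0 genes (0.0%) were called by limma, edgeR or DESeq2, and 110 had an unadjusted limma p under 0.05. Over the 4 doses, the slope per 10-fold dose was 0.43 for Klf2 (adjusted p = 0.0480), 0.35 for S1pr1 (adjusted p = 0.0251), 0.39 for Ccr7 (adjusted p = 0.0111) and -0.07 for Il7r (adjusted p = 0.831), beside 1.39% of genes with a rising slope. Of 25 alternative fits of each slope, 16 lost the call of Klf2, 10 that of S1pr1 and 5 that of Ccr7. The contrast of both end doses with both middle doses was -1.04 for Klf2 (adjusted p = 0.108) and -0.54 for S1pr1 (adjusted p = 0.305), where 0.757% of genes were called. In 6 of 25 alternative fits the contrast was called for Klf2 and in 3 of 25 for S1pr1, edgeR and DESeq2 among them, with adjusted p-values down to 9.08e-05 and 0.00817. Whether the slopes of the members differ from each other was not tested.

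The estimated share of RNA from the presenting cells differed between the doses, and subtracting it changed calls at 10 against 0.01 µM. For the 4 fibroblast markers whose P13.9 mean reached 20, the median level relative to that mean was taken as the share. It was 1.46 ± 0.491% at 10 µM and 31.9 ± 7.55% at 0.01 µM (SD, n = 3 each). These shares are in normalized units and are not parts of a library's reads. The subtraction was not adjusted for the total signal of each library. The same markers gave 2.67% to 4.99% in naive libraries, the naive cells not having been labelled as cultured with P13.9. The other estimate, from 74 genes without naive reads, gave 2.76% at 10 µM and 23.7% at 0.01 µM. With the fibroblast-list share subtracted and the rest rescaled, the log2 change was 1.04 for Klf2 (limma adjusted p = 0.153) and 0.62 for S1pr1 (adjusted p = 0.204). It was 0.87 for Ccr7 (adjusted p = 0.0675) and -0.67 for Il7r (adjusted p = 0.293). The share from the 74 genes was an alternative chosen after seeing the data. With it subtracted, Ccr7 kept its call with 1.04 (adjusted p = 0.0271). Klf2 then had 1.16 (adjusted p = 0.103) and S1pr1 0.79 (adjusted p = 0.0998).

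Leaving out single libraries bore on the same calls. The Klf2 call was lost without 0.01 µM A or B or 10 µM A, B or C (adjusted p from 0.0902 to 0.197), and that of S1pr1 without any 1 of the 6 libraries (adjusted p from 0.0502 to 0.129). Ccr7 kept its call in all 6 of these fits, with an adjusted p of 0.0115 to 0.0380.

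**Figure D3:**
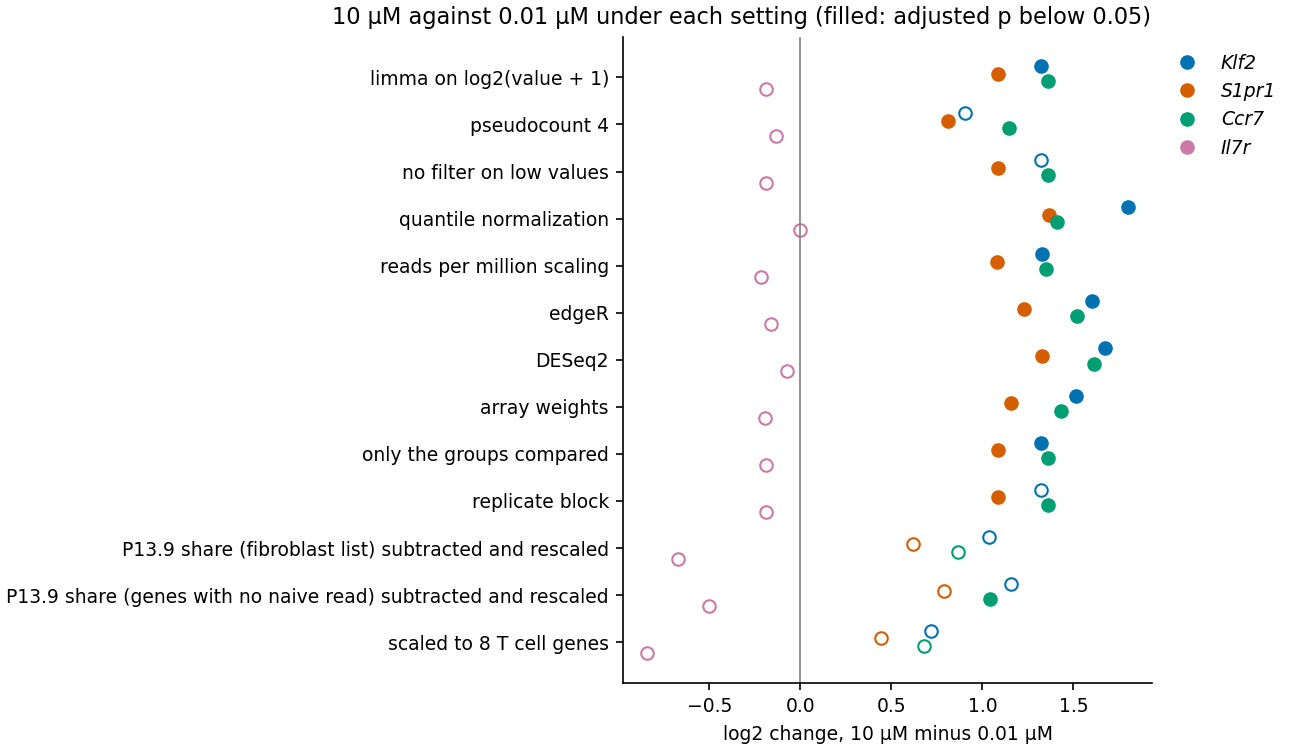
Log2 change of each member at 10 µM against 0.01 µM under 13 settings of the processing, 1 row per setting. Filled points have an adjusted p below 0.05 and open points do not. Klf2, S1pr1 and Ccr7 lie above 0 in every row, their points open in some, and Il7r lies between -0.84 and 0.00 with open points throughout.

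As a share of the T cell marker sum, which both doses carry, Ccr7 was 7.03% to 9.80% at 10 µM and 4.60% to 6.17% at 0.01 µM. Il7r ran the other way, with 1.64% to 2.61% at 10 µM and 3.58% to 4.67% at 0.01 µM. S1pr1 was 4.12% to 4.45% and 2.17% to 3.83%, without overlap, and Klf2 was 3.08% to 4.02% and 1.28% to 3.83%, with overlap. These shares are descriptions without a test, and Lck, 1 of the marker genes, was itself 105 ± 4.94 at 10 µM and 43.2 ± 8.34 at 0.01 µM (SD, n = 3 each).

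Ratios between members within a library do not depend on library scaling. The values are not per length, so a ratio is read between groups and not as 1 gene over the other. The log2 ratio of Ccr7 to Il7r was 1.43 ± 0.456 in naive cells, 0.40 ± 0.278 with 0.01 µM, 0.91 ± 0.502 with 0.1 µM, 0.83 ± 0.312 with 1.0 µM and 2.07 ± 0.201 with 10 µM (SD, n = 3 each). The 3 libraries at 10 µM, from 1.85 to 2.25, were above all other T cell libraries. The log2 ratio of S1pr1 to Ccr7 was 0.81 ± 0.362 in naive cells, with -0.78 ± 0.273, -0.57 ± 0.340, -0.13 ± 0.427 and -1.0 ± 0.307 in ascending order of dose. It was lower in each of the 12 activated libraries, at most 0.36, than in each naive library, at least 0.40. Klf2 and S1pr1 kept closer to each other, with a log2 ratio of 0.03 ± 0.602 in naive cells and of -0.65 ± 0.731, 0.03 ± 0.0505, 0.21 ± 0.287 and -0.30 ± 0.246 over the doses.

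**Figure D4:**
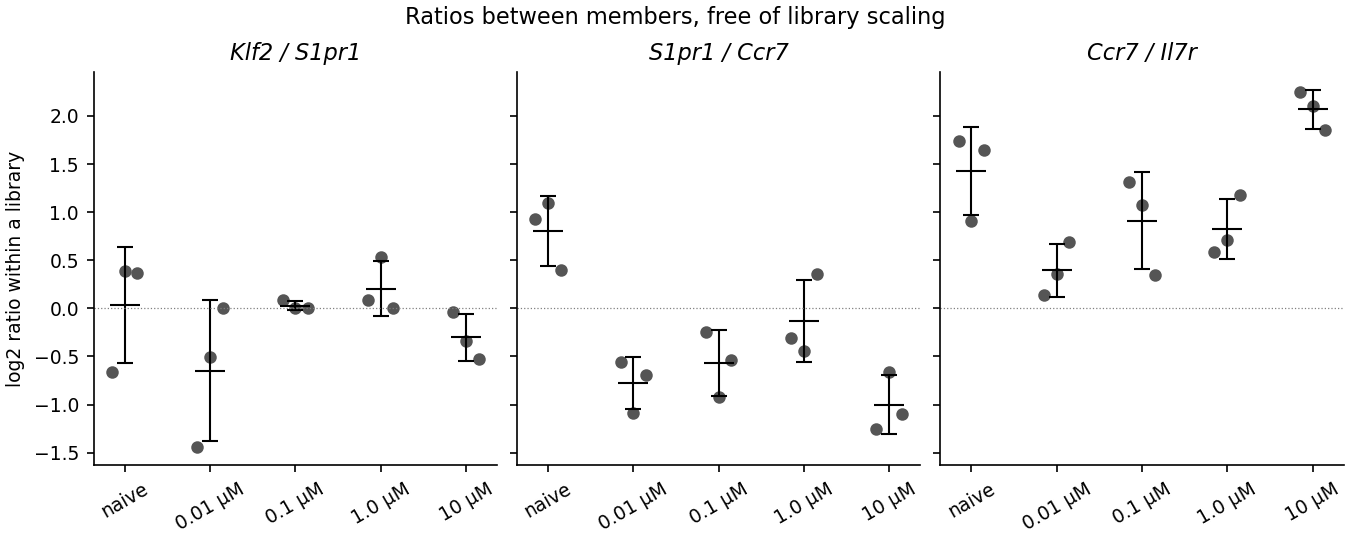
Log2 ratio of Klf2 to S1pr1, S1pr1 to Ccr7 and Ccr7 to Il7r within each of the 15 T cell libraries, by group, with naive cells on the left. Points are libraries, and bars are the mean ± SD of 3. The ratio of S1pr1 to Ccr7 is 0.81 in naive cells and at or below -0.13 at every dose, and that of Ccr7 to Il7r reaches 2.07 at 10 µM.

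P13.9 cells entered a joint fit with the T cell groups, over 8179 genes. All 4 members were lower in P13.9 than in naive cells, where 29.1% of genes were called lower. Against a floor of 3 reads over the P13.9 libraries, S1pr1 was at least 9.30-fold higher at 0.01 µM and at least 219-fold higher in naive cells than in P13.9. Ccr7 was at least 15.4-fold and 140-fold higher in the same groups, and Il7r at least 12.4-fold and 50.4-fold. Klf2 was the 1 member with P13.9 reads, and at 0.01 µM its log2 change against P13.9 was 0.98 ± 0.39 (limma adjusted p = 0.0760). At 10 µM the same change was 2.30 ± 0.39 (adjusted p = 0.000112). Higher calls over P13.9 covered 10.8% of genes at 0.01 µM and 15.6% at 10 µM. A P13.9 share of 31.9% would carry a Klf2 value of 0.422 into the libraries at 0.01 µM, whose mean was 3.73.

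Around these 4 genes, 5 lists of related genes were counted at 10 µM against naive cells, beside 24.3% of all genes called higher and 32.8% called lower. Scaling to total reads turned this background to 36.8% higher and 24.6% lower, quantile normalization to 31.7% and 26.9%, and edgeR to 29.6% and 25.3%. Of 16 regulators and naive-state factors, 11 fell, 2 rose and 3 did not pass, with a median log2 change of -1.41. Without the filter on low values, 12 of 18 fell and 2 rose. Foxo1, which maintains Il7r, Ccr7 and Klf2 in resting T cells, held 7.97 ± 0.810 at 10 µM and 50.4 ± 20.2 in naive cells (SD, n = 3 each), a log2 change of -2.43 ± 0.34 (limma adjusted p = 2.69e-05). Foxp1, a quiescence factor known to oppose FOXO1 at Il7r, fell by 3.55 (adjusted p = 3.62e-06), the chromatin organizer gene Satb1 by 2.13 (adjusted p = 5.23e-07) and the repressor gene Bach2 by 2.25 (adjusted p = 8.57e-06). Akt1, a kinase that keeps FOXO1 out of the nucleus, rose by 1.57 (adjusted p = 6.86e-05). Gfi1, a repressor of Il7r, rose by 2.23 (adjusted p = 0.0152), with 6 naive reads, all in 1 library.

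Of 16 other KLF family genes, 13 had a row and 7 passed the filter on low values. Of these 7 genes, 6 fell and 1 rose, with a median of -2.98. Without the filter, 7 of 13 fell and 1 rose. A gene could pass the filter through the naive libraries alone, so the filter favours genes that are high there. Klf6 held 14.1, 11.0 and 14 at 10 µM, against 223, 285 and 364 in naive cells, a fall of 4.36 ± 0.23 (adjusted p = 8.50e-10). Klf3, a repressor of the same family, fell by 3.53 (adjusted p = 2.09e-06) and Klf7 by 2.98 (adjusted p = 1.56e-06). Klf16 rose by 1.92 (adjusted p = 0.00837) with 4 naive reads. Between 10 and 0.01 µM none of the 7 passed.

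Of 13 genes of sphingosine 1-phosphate and egress, 5 fell, 3 rose and 5 did not pass, with a median of 0.04. Cd69, whose product pulls the S1PR1 protein off the cell surface, held 6.03 ± 0.892 at 10 µM and 107 ± 32.6 in naive cells (SD, n = 3 each), a fall of 3.90 ± 0.33 (adjusted p = 1.17e-07). Cd69, an early activation marker, was thus highest in the naive libraries. Rgs1, which dampens chemokine receptor signals, fell by 2.82 (adjusted p = 1.20e-06). S1pr4, another sphingosine 1-phosphate receptor, went against S1pr1, with 12.1, 15.8 and 14.4 at 10 µM, against 6.55, 3.90 and 2.17 in naive cells, a log2 change of 1.62 ± 0.30 (adjusted p = 0.000337). Its naive values are 1 read per library, and by reads the ratio was 4.07 with an exact 95% counting interval of 1.37 to 19.96. Gnai2, the inhibitory G protein subunit gene through which these receptors signal, rose by 1.07 (adjusted p = 0.000267).

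Of 17 lymph node entry genes, 6 fell, 5 rose and 6 did not pass, with a median of 0.04. The integrin gene Itga4 fell by 2.37 (adjusted p = 7.56e-05), the adhesion GTPase gene Rap1b by 1.47 (adjusted p = 2.24e-06) and the kinase gene Stk4 by 1.49 (adjusted p = 0.000919). Rac2, a GTPase that drives T cell movement, rose by 2.22 (adjusted p = 3.12e-05), Itgal, a chain of the integrin LFA-1, by 1.24 (adjusted p = 0.00158) and Coro1a, an actin regulator needed for egress, by 1.15 (adjusted p = 0.000858).

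Of 16 genes of interleukin-7 receptor signalling, 7 fell, 9 did not pass and 0 rose, with a median of -0.77. Il2rg, the partner chain, held 53.1, 56.9 and 58.6 at 10 µM, against 45.9, 58.6 and 54.1 in naive cells, a log2 change of 0.09 ± 0.17 (adjusted p = 0.667). The survival gene Mcl1 fell by 2.20 (adjusted p = 2.71e-07), Bcl2l11, which encodes the death protein BIM, by 3.76 (adjusted p = 2.16e-05) and the feedback inhibitor gene Socs3 by 3.06 (adjusted p = 4.35e-05).

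**Figure D5:**
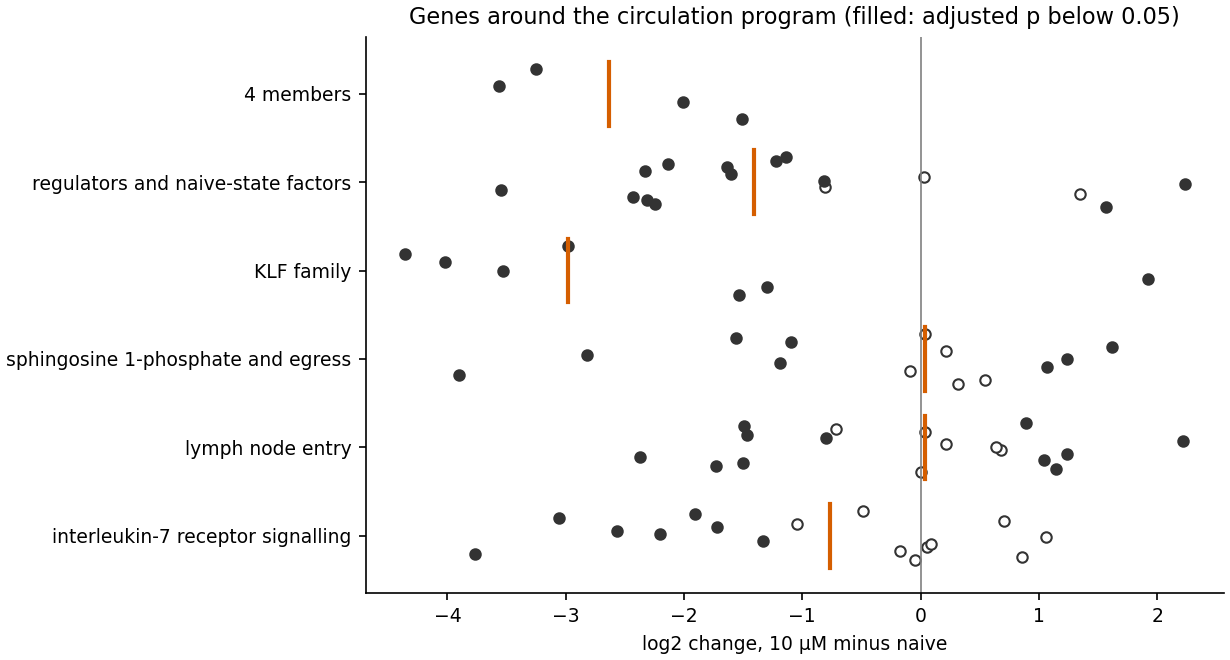
Log2 change at 10 µM against naive cells for the 4 members and for the genes of 5 related lists. Each point is a gene that passed the filter on low values, 7 of 13 for the KLF family. Points are filled where the adjusted p is below 0.05, and the orange bar is the median of the row. The KLF family has a median of -2.98 and the regulators -1.41, while the egress and lymph node entry lists spread on both sides of 0 with medians of 0.04.

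Fewer list genes passed between 10 and 0.01 µM, where the P13.9 share also differed, its part not tested beyond the subtraction above. Higher calls covered 1.9% and lower calls 6.25% of all genes. Of the lymph node entry genes, 3 of 17 rose and 1 fell. Cxcr4, the receptor for CXCL12, held 11.6 ± 2.49 at 10 µM and 3.29 ± 0.520 at 0.01 µM (SD, n = 3 each), a rise of 1.54 ± 0.42 (adjusted p = 0.0333). Itgb7, an integrin chain of gut homing, rose by 1.13 (adjusted p = 0.0190) and Coro1a by 0.92 (adjusted p = 0.0270). Tcf7, a transcription factor gene of naive and memory cells, was the 1 regulator of 16 that rose, by 0.98 (adjusted p = 0.0448), with 26.9 ± 2.15 at 10 µM and 13.2 ± 1.47 at 0.01 µM (SD, n = 3 each). Without the filter on low values Tcf7 was not called (adjusted p = 0.0637). Satb1 fell by 0.80 (adjusted p = 0.0266), Rgs1 by 1.67 (adjusted p = 0.00276) and Socs3 by 1.94 (adjusted p = 0.0156). With the fibroblast-list share subtracted, the calls of Cxcr4, Itgb7, Coro1a, Tcf7 and Socs3 were lost (adjusted p of 0.103, 0.126, 0.415, 0.320 and 0.0920), and those of Satb1 and Rgs1 were kept. Over all alternative fits, Rgs1 lost its call in 0 of 18 and Socs3 in 5 of 18. Of 19 fits each, Satb1 and Itgb7 lost theirs in 7, Coro1a in 10 and Cxcr4 and Tcf7 in 11.

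The genes most like each member were ranked by Pearson's r of log2(value + 1) over all 18 libraries, for genes whose mean value reached 20. For Klf2 the first was S1pr1 (r = 0.95), followed by Rps15a, Txnip, Junb and Thrap3. For S1pr1 they were Gimap6 (r = 0.98), Rps15a, Ablim1, Sub1 and Ccr7, for Ccr7 Cytip (r = 0.97), Fam107b, Rpl26, Cd28 and Tcf7, and for Il7r Satb1 (r = 0.97), Cytip, Nasp, Ptprc and Fyb. These r values are descriptions over libraries that differ in group and in depth. Over the 12 activated libraries alone, r was 0.91 between Klf2 and S1pr1, 0.74 between S1pr1 and Ccr7 and 0.65 between Klf2 and Ccr7. Il7r had r of 0.22 with Klf2, 0.15 with S1pr1 and 0.10 with Ccr7 there. Other genes stood closer to each member in these libraries than the members did to each other. The first were Gm5805 for Klf2 (r = 0.95), Ssbp4 for S1pr1 (r = 0.93), Eef1d for Ccr7 (r = 0.96) and Tln1 for Il7r (r = 0.83).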

How the data were processed

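The authors deposited signal values scaled by the median of ratios, 1 for each gene in each library, as the name of the table says. Tools listed in the submitters' processing notes are DESeq2, HTSeq 0.9.1, STAR 2.6.1d and FastQC 0.11.8, and the build is mm10. The strand setting is not given in the sources used here. Of 284544 values, 99.9996% were whole reads, the exception being 1 value of Tbx21. The tolerance was 0.0001 reads, widened in proportion to the count where the count was high. The 110 unnamed features, with 12.4% to 15.6% of naive reads and 1.94% to 5.36% elsewhere, were left out.

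limma 3.58.1 in R 4.3.3 (lmFit, eBayes with trend) was run on log2(value + 1), a scale that understates changes of low genes. A gene was tested if 3 or more of the 15 T cell libraries reached a value of 5, with 1 spread for 5 groups, and the code was tested on simulated data. On the recovered reads edgeR 4.0.16 called 3990 genes and DESeq2 1.42.0 called 3659 for 10 µM against naive cells, and limma 4145. Counting intervals cover counting error only. The members and lists were chosen with earlier results of these data known. Named list genes were up to 3 per list and direction with the smallest adjusted p in 10 µM against naive cells or against 0.01 µM, plus Cd69, S1pr4, Foxo1, Foxp1, Il2rg, Klf6 and 1 gene that is not reported here, and not all of these are described.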

Additional observations from a re-analysis of the deposited data

How the results depend on the processing

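The fall of the 4 members against naive cells was called in all 284 alternative fits of these 16 results, with log2 changes from -5.28 to -0.87 and adjusted p-values up to 0.0477. The 16 results between doses are the members at 10, 0.1 and 1.0 against 0.01 µM and their slopes, without the other dose contrasts. Of their 324 fits, 225 gave the same outcome, 90 lost a call, 9 gained one and 0 were reversed. Estimates that were not called could still change sign. Ccr7 at 1.0 µM went from 0.62 to -0.02 with scaling to T cell genes. Il7r went from 0.35 to as low as -0.28 at 0.1 µM, and from 0.22 to as low as -0.40 at 1.0 µM. The 225 include results not called in the main fit, 78 fits of Il7r and 13 and 16 of Ccr7 at 0.1 and 1.0 µM. Causes were not tested except where the setting names the change. Il7r was called in 0 of 78, and its level was too low for the filter at a mean of 20. Scaling to 8 T cell genes, chosen after seeing the data, moved the median of all genes to -0.66 at 10 against 0.01 µM. Relative to 0.01 µM, the calls lost were as follows. With the fibroblast-list share subtracted, Klf2 had 1.04 at 10 µM, 1.31 at 0.1 µM and a slope of 0.34, S1pr1 0.62, 0.60, 0.76 at 1.0 µM and a slope of 0.20, and Ccr7 0.87 and a slope of 0.23. With the share from 74 genes, Klf2 had 1.16 and a slope of 0.38, S1pr1 0.79, 0.75, 0.91 and a slope of 0.25, and Ccr7 a slope of 0.29. With scaling to T cell genes, Klf2 had 0.72 at 10 µM, 0.93 at 0.1 µM and a slope of 0.25, S1pr1 0.44, 0.36, 0.56 at 1.0 µM and a slope of 0.15, and Ccr7 0.68 and a slope of 0.18. A pseudocount of 4 gave Klf2 0.91, 1.07 and a slope of 0.30, and S1pr1 0.73 at 0.1 µM. Without a filter Klf2 had 1.32, 1.52 and a slope of 0.43 and S1pr1 0.98 at 0.1 µM, and with scaling to total reads S1pr1 had 0.90 there. With only the groups compared S1pr1 had 1.18 at 1.0 µM. Calls gained were those of Ccr7 at 0.1 µM with a mean of at least 20 (0.83), quantile normalization (0.90), edgeR (0.90), DESeq2 (0.96), array weights (0.88) and only the groups compared (0.83), and at 1.0 µM with edgeR (0.78), DESeq2 (0.83) and array weights (0.56).

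No pairing of the activated samples by their letters A to C was seen. Whether a letter marks a shared animal or culture was not tested. Of 18 same-letter pairs, 3 had a correlation of deviations above 0.1 (range -0.20 to 0.20), and 3 of 12 libraries correlated best with their own letter. A fit with the replicate block lost the calls of Klf2 at 10 µM (1.32), at 0.1 µM (1.52) and in slope (0.43). It also lost those of S1pr1 at 0.1 µM (0.98), at 1.0 µM (1.18) and in slope (0.35). Calls against 0.01 µM were kept for Klf2 at 1.0 µM (limma adjusted p = 0.0318), S1pr1 at 10 µM (0.0450) and Ccr7 at 10 µM (0.0177). With the block, 402 genes were called at 10 against 0.01 µM. The naive and P13.9 columns carry numbers in place of the letters, so no block was fitted against them.

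Leaving out 1 library gave Klf2 1.11 to 1.65 at 10 µM, 1.31 to 1.85 at 0.1 µM, 1.61 to 2.21 at 1.0 µM and a slope of 0.37 to 0.53. It gave S1pr1 0.90 to 1.19, 0.80 to 1.16, 0.99 to 1.44 and a slope of 0.29 to 0.38, and Ccr7 a slope of 0.36 to 0.43. At 1.0 against 0.01 µM the Klf2 call was lost without 0.01 µM A or B or 1.0 µM B or C, and that of S1pr1 in 5 of 6 fits. At 0.1 against 0.01 µM 5 of 6 fits lost the call of Klf2 and 6 of 6 that of S1pr1, and of 12 fits of each slope 10 lost it for Klf2, 6 for S1pr1 and 2 for Ccr7. Genes called at 10 against 0.01 µM numbered 592, and 3334 with array weights, 2547 with only the groups compared, 2528 with edgeR, 2330 with DESeq2, 1989 with scaling to T cell genes, 251 above a mean of 20 and 199 to 387 without 1 library. At 10 µM against naive cells the share of higher calls, 42.6%, became 59.9% with scaling to total reads, 54.1% with quantile normalization and 54.0% with edgeR. The share of higher calls at 10 against 0.01 µM, 23.3%, became 44.5% with edgeR, 53.6% with DESeq2 and 0.905% with scaling to T cell genes. At 10 µM against naive cells 4145 were called, and 970 above a mean of 20. At 1.0 µM against naive cells 3973 were called, 936 above a mean of 20 and 2534 with only the groups compared. At 1.0 against 0.01 µM 312 were called, 2060 with array weights, 1623 with edgeR, 1574 with scaling to T cell genes, 1436 with DESeq2, 958 with only the groups compared, 514 with quantile normalization, 164 with the replicate block, 160 above a mean of 20 and 72 to 203 without 1 library. Depth limits the naive levels most, Il7r resting on 26 naive reads.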
